A study of Mus musculus with 2 samples.

Results

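Transcript signals of 10 marker genes of tanycytes and ependymal cells were compared between the hypothalamus of Crtc1 knockout mice and that of wild-type mice. The members were fixed by name, as Rax, Vim, Nes, Gpr50, Crym, Lhx2, Col25a1 and Scn7a for tanycytes and Foxj1 and Ccdc153 for ependymal cells. They were read through every probe set that the annotation of the Mouse Genome array pairs with that gene alone, which gave 18 probe sets for the 10 genes, of 45037 probe sets and 18193 genes in all. No probe set paired a member with another gene. The knockout group was 1 array of hypothalamic RNA mixed in equal parts from 3 Crtc1 knockout males of 12 weeks, and the wild-type group was 1 array of RNA mixed in the same way from 3 wild-type males of that age. All animals were fasted for 18 h and given food for 6 h before the tissue was taken. No source used here gives the strain or the construction of the Crtc1 allele. Crtc1 is a coactivator through which CREB switches on genes, and the study's title ties it to energy balance and fertility.

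Tanycytes are elongated glial cells in the floor and lower walls of the third ventricle, with processes that reach into the arcuate nucleus and the median eminence. They carry hormones and nutrients between cerebrospinal fluid, blood and hypothalamic neurons, convert thyroid hormone, and take part in the seasonal control of reproduction. Ependymal cells line the rest of the ventricle and move the fluid with motile cilia, whose genes are switched on by the factor Foxj1 together with factors of the RFX family. A tanycyte or an ependymal cell is a small fraction of a hypothalamus, so their transcripts are diluted in RNA of the whole tissue. In such RNA, fewer cells of a type and less RNA per cell cannot be told apart.

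With 1 array per group there is no test between genotypes, no p-value and no replicate check, and a pool holds no spread between mice. Signals below the 30th percentile of an array, 20.5 in the KO pool and 20.2 in the WT pool, were raised to that floor before log2 values were taken. Probe sets were taken as measured if their log2 signal, averaged over the pair of arrays, reached the median of all probe sets, a signal of 52.3. Each difference is the log2 value of the KO pool minus that of the WT pool, and folds restate it on the linear scale. Differences of members are set beside an array error. It is the SD of the differences between measured probe sets of one gene, pooled over genes in bands of their mean log2 signal. It was 0.34 for a mean log2 signal under 7, 0.27 up to 8, 0.24 up to 9, 0.19 up to 10 and 0.17 beyond. A probe set takes the error of the band of its own signal. Probe sets of one gene share the same arrays, so a shift of a whole transcript between the arrays is not in this error. A difference larger than the error is therefore not shown to exceed the scatter between arrays or mice. The same errors by signal apply to other genes, where they are not printed each time.

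Of facts that concern the whole arrays, the Crtc1 signal had the direction of the labels, at 85.1 in the KO pool against 631 in the WT pool by probe set 1434476_at. Ratios of 3' to 5' signals of the RNA quality controls were higher in the KO pool for actin, at 1.47 against 1.25 in the WT pool. The same held for pyruvate carboxylase, at 2.60 in the KO pool and 1.68 in the WT pool. Gapdh gave 0.86 in the KO pool and 0.87 in the WT pool. The transferrin receptor went the other way, at 3.85 in the KO pool and 5.87 in the WT pool. Its 5' signals, 42.8 in the KO pool and 31.9 in the WT pool, were below 52.3, the limit for measured. Over 11312 measured genes the median difference was 0.00 and the SD of the differences 0.25. In all, 3.5% of genes were at least 1.5-fold apart, 2.06% with the higher and 1.44% with the lower value in the KO pool. At least 2-fold apart were 0.433% of genes, 0.265% higher and 0.168% lower. With median centring the 1.5-fold counts were 165 higher and 229 lower, against 233 higher and 163 lower in the deposited scaling.

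Of the 10 members, 8 were measured and 2, Rax and Gpr50, were not. Of the 8, Foxj1, Nes, Scn7a, Crym, Lhx2 and Vim had lower values and Ccdc153 and Col25a1 higher values in the KO pool by their brightest probe sets. That is 6 of 8 lower, where 49% of all measured genes were lower. None of the 8 was 2-fold apart, and 2 were at least 1.5-fold apart, Nes at 1.52-fold lower and Ccdc153 at 1.56-fold higher. Both read near the limit of detection, where single probe sets scatter most. At a mean log2 signal below 7, 11.1% of measured probe sets were at least 1.5-fold apart, against 4.79% of measured probe sets at any signal. The next member below the threshold of 1.5-fold was Foxj1, at 1.27-fold lower. At the limit for measured, the dimmest probe set inside was one of Nes with signals of 52.0 in the KO pool and 61.8 in the WT pool. The brightest one outside was one of Scn7a with 34.1 in the KO pool and 52.1 in the WT pool.

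**Figure D1:**
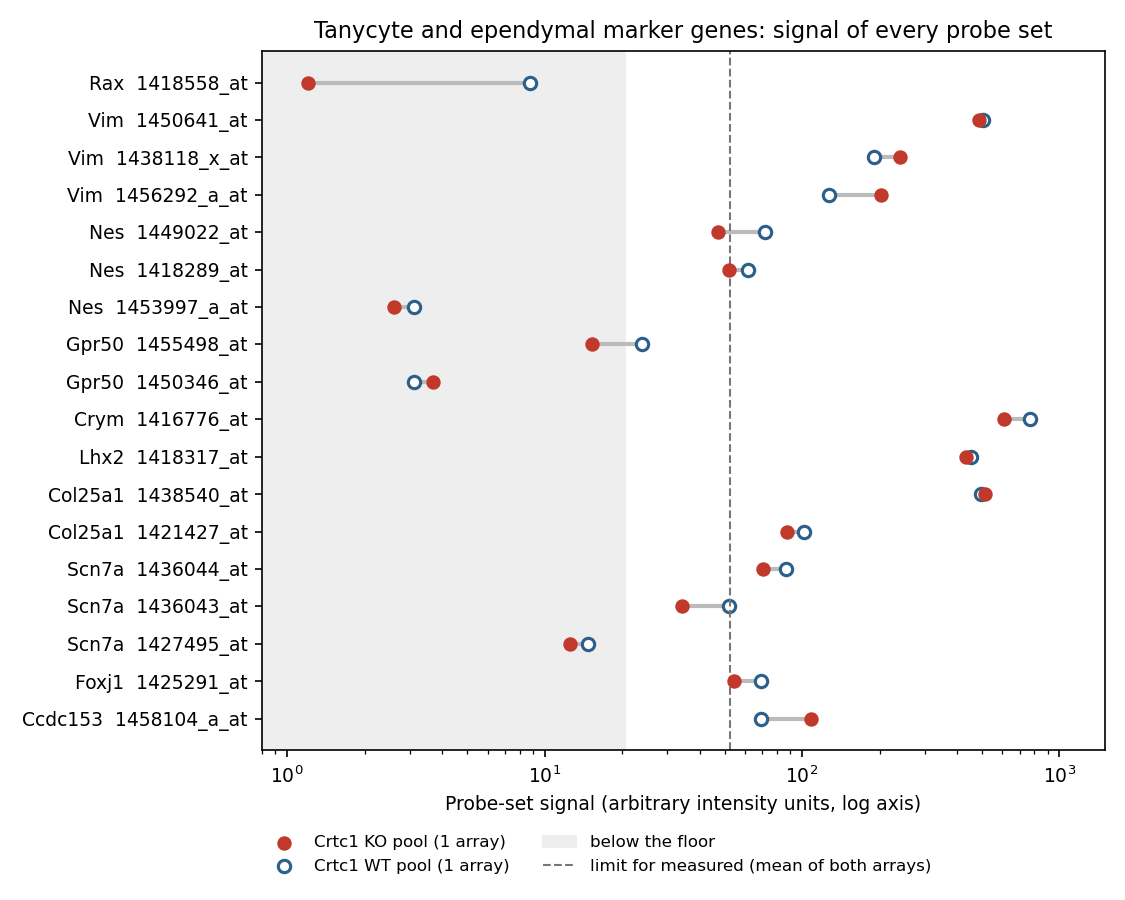
Signal of all 18 probe sets of the 10 members on a log axis in intensity units, with filled points for the Crtc1 KO pool and open points for the Crtc1 WT pool, 1 array each. The shaded zone lies below the floor and the dashed line marks the limit for measured at 52.3. The probe sets of Rax and Gpr50 lie left of that line. Of the 12 measured probe sets, 8 have their filled point left of the open one and 4 right of it, and points under the floor have no order.

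Because Crtc1 acts through CREB at promoters, the sequence before the start sites of members is shown for those the results turn on. Windows of 7 of the 10 members, 8 windows in all, were used from the RefSeq promoter table (build GRCm38.p6). Each was read over the 250 bases before the annotated start. No window of Rax, Crym or Foxj1 was used, so the counts over member windows do not cover these genes. Ccdc153 and Nes are the members past 1.5-fold, Vim is the member whose probe sets disagreed, and the upstream window of Lhx2 is the only one of the 8 with the core of a cAMP response element. Sequences run 5′ to 3′ on the strand of the gene, and capitals mark matches to the motifs named below.
Ccdc153, chr9:44240427-44240676, + strand: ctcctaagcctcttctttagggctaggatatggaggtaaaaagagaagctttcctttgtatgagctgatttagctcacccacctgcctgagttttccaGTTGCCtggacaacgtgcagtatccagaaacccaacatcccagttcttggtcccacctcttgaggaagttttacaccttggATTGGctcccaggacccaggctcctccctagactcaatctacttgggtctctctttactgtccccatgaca
Nes, chr3:87970843-87971092, + strand: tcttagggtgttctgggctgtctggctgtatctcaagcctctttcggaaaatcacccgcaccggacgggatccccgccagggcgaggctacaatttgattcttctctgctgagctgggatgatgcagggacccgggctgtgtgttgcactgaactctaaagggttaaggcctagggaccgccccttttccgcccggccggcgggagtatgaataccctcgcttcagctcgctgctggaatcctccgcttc
Vim, chr2:13574061-13574310, + strand: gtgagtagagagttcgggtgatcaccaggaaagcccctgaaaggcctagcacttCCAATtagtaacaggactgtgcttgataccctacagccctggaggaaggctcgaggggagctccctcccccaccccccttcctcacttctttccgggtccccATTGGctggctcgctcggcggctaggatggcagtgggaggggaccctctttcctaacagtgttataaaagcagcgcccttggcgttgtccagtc
Lhx2, chr2:38339031-38339280, + strand: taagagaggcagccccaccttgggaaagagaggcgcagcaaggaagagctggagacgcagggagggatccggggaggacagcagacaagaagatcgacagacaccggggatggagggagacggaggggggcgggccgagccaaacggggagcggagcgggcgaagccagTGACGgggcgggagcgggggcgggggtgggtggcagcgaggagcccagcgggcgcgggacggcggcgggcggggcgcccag

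Motifs were searched on both strands in these 250 bases, and in the same stretch of all 32851 windows of the table. The full cAMP response element TGACGTCA, to which CREB binds, was in none of the 8 member windows and in 1.55% of all windows. Its core TGACG, which the full element contains, was in 1 of the 8, the Lhx2 window shown above, where it ends 77 bases before the start, and in 17.8% of all windows. GTTGCC, an arm of the X-box bound by RFX factors, was in the Ccdc153 window alone of the 8, starting 152 bases before the start, and in 10.4% of all windows. The forkhead motif TGTTTAC, of the kind bound by Foxj1, was in none of the 8 and in 3.17% of all windows, and the homeodomain motif TAATTA was in none of the 8 and in 4.84% of all windows. CCAAT, the box bound by NF-Y, was in 4 of the 8, in Vim, Ccdc153, Col25a1 and Gpr50, and in 33.9% of all windows. No matches overlapped. The Nes window held none of these letters. A match is a string of letters in a window, and the absence of one covers these 250 bases only.

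Of the transcription factors that define tanycytes, one read under the floor and one was measured. Rax, the retina and hypothalamus homeobox gene that tanycytes keep through adult life, had 1 probe set, 1418558_at, with signals of 1.2 in the KO pool and 8.8 in the WT pool. Values under the floor have no order, so no fold is given. Lhx2, a LIM homeobox gene needed for tanycyte identity, read 434 in the KO pool and 455 in the WT pool by probe set 1418317_at. The difference was -0.07, within its array error of 0.24, and 72.0% of the 4515 measured probe sets of that signal were at least as far apart. Lhx2 is also expressed by neurons of other forebrain regions, while Rax, the more restricted of the pair, read under the floor in both pools, so the gene that most defines tanycytes gave no value here.

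Among genes that act beside Rax and Lhx2 in the hypothalamus and eye field, 12 of 22 were measured. None was 1.3-fold apart, and the median was 0.04, with 7 higher and 5 lower. With median centring the balance turned, to 4 higher and 8 lower. Otp and Isl1, factors of hypothalamic neurons, were measured and differed by 0.05 and 0.06 by their brightest probe sets, with a second probe set of Isl1 at 0.48, whereas Sim1 and Nr5a1, markers of the paraventricular and ventromedial nuclei, were below the limit for measured. Six3, a homeobox gene of the anterior neural plate, differed by 0.03. Nkx2-1, the homeobox gene of the ventral hypothalamus, read 36.0 in the KO pool and 19.6 in the WT pool, below the limit for measured. Six6, a paralog of Six3, read 23.7 in the KO pool and 5.0 in the WT pool, also below it. Ldb1, a cofactor that LIM homeodomain proteins such as Lhx2 need, had the largest difference of the list at -0.37, 1.29-fold lower, with an array error of 0.24.

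The intermediate filament genes of tanycytes, Nes and Vim, were read by 3 probe sets each. Nes encodes nestin, a filament protein of neural stem cells that tanycytes retain. Its brightest probe set, 1449022_at, read 47.3 in the KO pool and 72.1 in the WT pool, a difference of -0.61 with an array error of 0.34. Of the 7033 measured probe sets below a mean log2 signal of 7, 9.91% were at least that far apart. The second measured probe set, 1418289_at, read 52.0 in the KO pool and 61.8 in the WT pool, a difference of -0.25. The remaining probe set, 1453997_a_at, read 2.6 in the KO pool and 3.1 in the WT pool, under the floor. Both measured probe sets of Nes were thus lower in the KO pool, with a mean of -0.43, which is under 1.5-fold. The brightest was also under 1.5-fold with a floor at the 50th percentile, at -0.41, and with a pseudocount of 16, at -0.48.

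Vim encodes vimentin, a filament protein of tanycytes that ependymal cells, astrocytes and vessel cells also make. Its brightest probe set, 1450641_at, read 489 in the KO pool and 503 in the WT pool, a difference of -0.04 with an array error of 0.24. The other probe sets read higher in the KO pool. Probe set 1438118_x_at gave 239 in the KO pool and 191 in the WT pool, a difference of 0.33, and 1456292_a_at gave 202 in the KO pool and 127 in the WT pool, a difference of 0.67 or 1.59-fold. The annotation pairs both with the same sequence record, so they share their source. The suffix _a_at marks probes that match several transcripts of a gene, and _x_at marks probes that may match other genes. For 1456292_a_at, 2.30% of the 5097 measured probe sets of that signal were at least as far apart. The mean over the 3 probe sets was 0.32 and their SD 0.36. A range between probe sets as wide as that of Vim occurred in 11% of the 1340 genes with 3 measured probe sets, and 69.2% of those genes had probe sets not all of one sign.

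**Figure D2:**
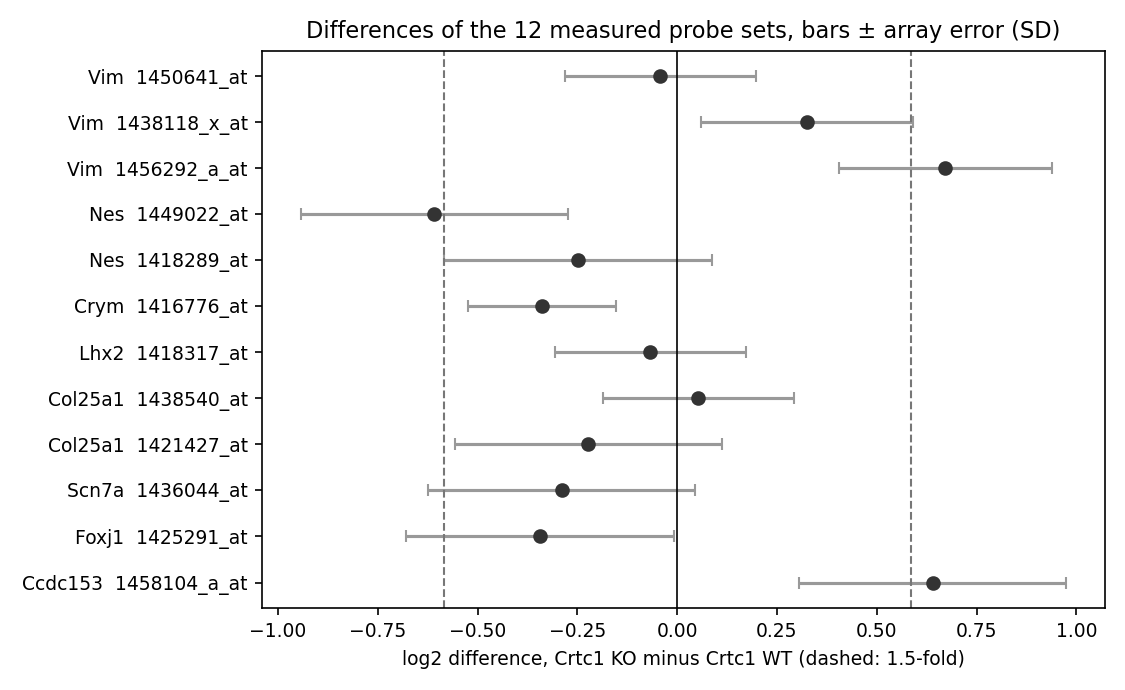
Difference on the log2 scale, Crtc1 KO minus Crtc1 WT, for the 12 measured probe sets of the 8 measured members, with bars of 1 array error (SD between probe sets of one gene at that signal) each way and dashed lines at 1.5-fold. The 3 probe sets past a dashed line are 1456292_a_at of Vim and 1458104_a_at of Ccdc153 on the right and 1449022_at of Nes on the left, and the bars of 6 of the 12 cross 0.

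Other intermediate filament genes and their partners were lower in 9 of the 12 that were measured (median -0.07). Of all measured genes 49% were lower, with a median of 0.00. No gene of this list was 1.5-fold apart. Krt18, a keratin gene, was 1.48-fold lower, Nefh, the heavy neurofilament gene, 1.41-fold lower and Lmnb1, a lamin gene, 1.32-fold lower, with array errors of 0.34 for Krt18 and Lmnb1 on the log2 scale. Nefh read 636 in the KO pool and 895 in the WT pool, a difference of -0.49 with an array error of 0.19. The filament genes of neurons Ina, Nefl and Nefm differed by -0.06, -0.08 and -0.06. Gfap, the filament gene of astrocytes that dorsal tanycytes share, was higher by all 3 of its measured probe sets, by 0.07 to 0.14, and lay within its array error of 0.17. Des, the muscle filament gene desmin, was below the limit for measured.

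The receptor Gpr50 was not measured. It is an orphan receptor related to the melatonin receptors and is made by tanycytes. Probe set 1455498_at read 15.3 in the KO pool, under the floor, and 23.9 in the WT pool, just above it. Probe set 1450346_at read 3.7 in the KO pool and 3.1 in the WT pool. Both lie in the dim range of the array, and no fold is given. Mtnr1a, a melatonin receptor gene, read 31.3 in the KO pool and 24.2 in the WT pool, below the limit as well, and Mtnr1b was not analysed here.

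Crym had the smallest array error of the measured members. It encodes mu-crystallin, a cytosolic protein that binds thyroid hormone and is made by tanycytes and by some neurons. Its single probe set, 1416776_at, read 607 in the KO pool and 767 in the WT pool. The difference of -0.34, 1.26-fold lower, was larger than its array error of 0.19. Of the 3099 measured probe sets of that signal, 6.32% were at least as far apart. The value lay between -0.40 and -0.33 in the 10 alternative settings.

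Genes of thyroid hormone handling, the process in which Crym takes part, had no common direction. Of 21 listed genes 17 were measured, 10 higher and 7 lower with a median of 0.05. With median centring they were 7 higher and 10 lower. Dio2, the deiodinase by which tanycytes activate thyroid hormone, read 430 in the KO pool and 394 in the WT pool. Its difference was 0.13, and its 3 measured probe sets lay between -0.06 and 0.30. Slco1c1, a thyroxine carrier, differed by 0.09, and the hormone receptor genes Thra and Thrb by -0.17 and -0.15 by their brightest probe sets, all within their array errors. The 3 measured probe sets of Thra lay between -0.46 and 0.14. Ttr, which encodes the thyroid hormone carrier of cerebrospinal fluid, was lower by all 4 of its measured probe sets, by -0.23 to -0.00.

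Past 1.3-fold on that list were Hr and Trhde. Hr encodes a corepressor that thyroid hormone induces in brain. It read 184 in the KO pool and 274 in the WT pool by its brightest probe set, a difference of -0.57 with an array error of 0.27. A second probe set of Hr read 78.0 in the KO pool and 104 in the WT pool, a difference of -0.41. Both probe sets of Hr were thus lower in the KO pool, while 10 of the 17 measured genes of this list were higher in the deposited scaling. Trhde, which encodes the enzyme that degrades thyrotropin-releasing hormone and which tanycytes make, was 1.31-fold higher at signals of 62.5 in the KO pool and 47.8 in the WT pool, a difference of 0.39 with an array error of 0.34. Dio3 was not analysed here.

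Retinoid genes, which tanycytes also use to make and carry retinoic acid, were lower in 7 of the 9 that were measured (median -0.07). Of all measured genes, 49% were lower. None of the retinoid genes was 1.3-fold apart. When the probe sets of a gene were averaged the count was 5 of 9 lower and the median -0.00. The largest difference was that of Rbp4, a retinol carrier gene, at -0.36 with an array error of 0.27.

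The surface and channel genes of tanycytes differed by less than their array errors in each measured probe set. Col25a1 encodes a collagen that spans the cell membrane and is cut free by furin. Its brighter probe set, 1438540_at, read 515 in the KO pool and 496 in the WT pool, a difference of 0.05 with an array error of 0.24. The dimmer probe set, 1421427_at, read 87.1 in the KO pool and 102 in the WT pool, a difference of -0.22 with an array error of 0.34. The probe sets of Col25a1 thus had opposite signs, as in 57.4% of all 5199 genes with several measured probe sets, and the brighter one was -0.01 with median centring. Of its relatives, Col23a1 differed by -0.13, and Col13a1 was below the limit. Furin, the gene of the protease, differed by 0.32 with an array error of 0.34.

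Scn7a encodes Nax, a channel of glia in the circumventricular organs that senses the sodium concentration of body fluid. Its measured probe set, 1436044_at, read 70.6 in the KO pool and 86.3 in the WT pool, a difference of -0.29 with an array error of 0.34. Probe set 1436043_at, paired with the same sequence record, read 34.1 in the KO pool and 52.1 in the WT pool and was below the limit. The last probe set, 1427495_at, read 12.5 in the KO pool and 14.8 in the WT pool, under the floor. Both probe sets of Scn7a above the floor had lower signals in the KO pool, and the measured one lay within its array error. Genes of voltage-gated sodium channel subunits, listed beside Scn7a, were higher in 6 of the 7 measured, with a median of 0.17. Of all measured genes, 50.9% were higher. Scn1a, Scn2a and Scn8a, which carry sodium current in neurons, differed by -0.13, 0.21 and 0.11 by their brightest probe sets. The mean over the 4 measured probe sets of Scn8a was -0.07, with 3 of them lower. With median centring 5 of the 7 subunit genes were higher, and the median was 0.07 when dim probe sets were kept. Scn9a was below the limit for measured with all 5 of its probe sets.

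Both ependymal members were seen by 1 probe set each, and the values went in opposite directions. Foxj1, the transcription factor that starts the programme of motile cilia, read 54.6 in the KO pool and 69.3 in the WT pool by probe set 1425291_at. The difference was -0.34, about the size of its array error of 0.34, and 32.5% of the measured probe sets of that signal were at least as far apart. Ccdc153, a coiled-coil protein gene used as a marker of multiciliated ependymal cells, read 108 in the KO pool and 69.3 in the WT pool by probe set 1458104_a_at. The difference was 0.64 with an array error of 0.34, and 8.49% of the measured probe sets of that signal were at least as far apart. Ccdc153 was under 1.5-fold with median centring, at 0.58, and with a pseudocount, at 0.54.

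The other ependymal and motile cilium genes were mostly too dim to measure. Of 41 listed, 14 were measured, 8 higher and 6 lower, with a median of 0.05, and none was 1.5-fold apart. With each of the 3 other scalings the count was 7 higher and 7 lower, and the median was -0.16 with a filter at the 70th percentile and -0.10 without _s_at, _x_at and _a_at probe sets. Tmem212, a marker of ependymal cells, differed by -0.20 and Ccdc39, a gene of the ciliary axoneme, by 0.07. Past 1.3-fold were Lrrc23, an axoneme gene, at 1.38-fold lower, Rarres2, which encodes chemerin, at 1.34-fold higher and the axonemal dynein gene Dnah9 at 1.34-fold higher. The second probe set of Rarres2 differed by 0.02. Ccdc153 at 0.64 therefore lay above all 14 of them, whose highest value was 0.43.

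Transcription factors that act with Foxj1 in ciliated cells were higher in all 5 that were measured, of 12 listed (median 0.21), and 50.9% of all measured genes were higher. With median centring, and likewise with averaged probe sets, the count was 4 of 5. Rfx1, Rfx3 and Rfx4 differed by 0.04, 0.14 and 0.26, each within its array error, and the second probe set of Rfx1 by -0.52. Rfx2 was below the limit with all 4 of its probe sets. E2f5, a factor needed for multiciliated cells, had its brightest probe set 1.57-fold higher, at 593 in the KO pool and 377 in the WT pool, but its other probe sets differed by -0.03 and -0.29.

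**Figure D3:**
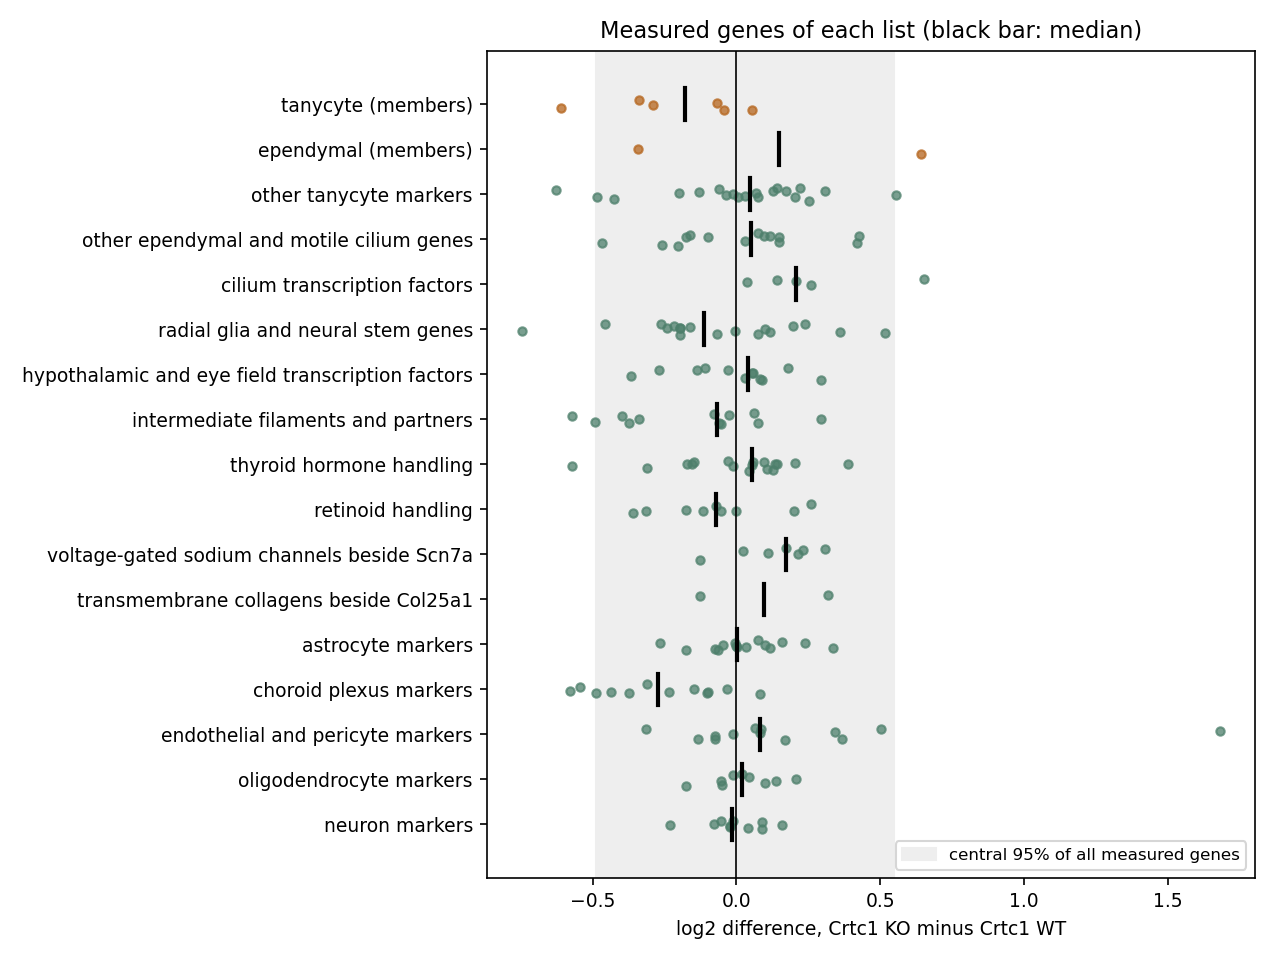
Difference on the log2 scale, Crtc1 KO minus Crtc1 WT, of every measured gene on the member lists (brown) and on the companion lists (green), 1 point per gene by its brightest probe set, with a black bar at the median of the list. The shaded band holds the central 95% of all 11312 measured genes. The medians of the tanycyte members and of the choroid plexus markers lie left of 0, at -0.18 and -0.27, and that of the other tanycyte markers at 0.05.

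As a group, the tanycyte members were lower in 5 of 6 measured genes, with a median of -0.18. That median is the midpoint of Lhx2 at -0.07 and Scn7a at -0.29. Of the lower genes, Vim, Lhx2 and Scn7a lay within their array errors. With averaged probe sets Vim was 0.32 and Col25a1 -0.08, and 5 of 6 were again lower. The ependymal pair had no common direction, with Foxj1 at -0.34 and Ccdc153 at 0.64, and its median of 0.15 is their midpoint. Of all measured genes, 49% were lower. With median centring all 6 tanycyte members were lower, Col25a1 turning from 0.05 to -0.01, and the median of all measured genes moved to -0.06. Of 29 further markers 20 were measured, 12 higher and 8 lower, with a median of 0.05, and with median centring 10 were higher and 10 lower. Of these 29, 5 are also on another list used here, and signals of whole tissue do not show which cells make them. Ecrg4, a secreted factor gene of tanycytes, ependyma and choroid plexus, read 180 in the KO pool and 277 in the WT pool. It was 1.54-fold lower, a difference of -0.63 with an array error of 0.27, and its second probe set differed by -0.20. Rcn1, which encodes a calcium-binding protein of the endoplasmic reticulum, was 1.47-fold higher. Deptor, an inhibitor of mTOR, was 1.40-fold lower by its brightest probe set, and its 5 measured probe sets lay between -0.54 and 0.38. Fgf10, a growth factor gene that marks tanycytes of the ventricle floor, was 1.34-fold lower, at 49.6 in the KO pool and 66.6 in the WT pool, a difference of -0.43 with an array error of 0.34.

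Genes of radial glia and neural stem cells, a programme that tanycytes keep in part, were lower in 11 of the 18 that were measured (median -0.11). Of all measured genes, 49% were lower. Pax6, a homeobox gene of neural progenitors, read 47.1 in the KO pool and 78.9 in the WT pool and was 1.68-fold lower, a difference of -0.74 with an array error of 0.34. Emx2 was 1.37-fold lower and Gli3, a transcription factor of hedgehog signalling, 1.43-fold higher, while the second probe set of Gli3 differed by 0.05. Sox2, the stem cell factor that tanycytes and astrocytes express, read 493 in the KO pool and 565 in the WT pool, a difference of -0.20 with an array error of 0.19. The Notch receptor gene Notch2 differed by 0.36 and the Notch target Hes5 by -0.07, with a second probe set of Hes5 at 0.24.

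Markers of cells that border on tanycytes and ependyma were read beside these values. Of 12 measured choroid plexus markers 11 were lower, where 49% of all measured genes were lower. The markers had a median of -0.27, and in each scaling the count was 11 of 12. Their summed signals were 9714 in the KO pool and 10948 in the WT pool. Most of each sum was Ttr, at 7745 in the KO pool and 8571 in the WT pool, a difference of -0.15 with an array error of 0.17. Folr1, Kl, Cldn2 and Sostdc1, which encode a folate receptor, klotho, a tight junction protein and an inhibitor of bone morphogenetic proteins, were 1.49-fold, 1.46-fold, 1.40-fold and 1.35-fold lower. Their part in the lower values of tanycyte members was not tested. Markers of astrocytes, which make Vim as well, had a median of 0.00 over 15 genes, with 8 higher and 7 lower. They were 6 higher and 9 lower with median centring, and 10 higher and 5 lower with quantile or loess scaling. Their summed signals were 30283 in the KO pool and 30200 in the WT pool.

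Of 13 measured endothelial and pericyte markers 8 were higher, where 50.9% of all measured genes were higher. These markers had a median of 0.08 and summed signals of 3714 in the KO pool and 3135 in the WT pool. The median was 0.26 with a filter at the 70th percentile and -0.01 without _s_at, _x_at and _a_at probe sets. Vessel cells make Vim too, and the part of these genes in its values was not tested. Plvap is a gene of the fenestrated vessels that tanycyte processes contact in the median eminence. It read 427 in the KO pool and 133 in the WT pool, 3.20-fold higher by 1 probe set. These signals are part of the sums given above. Pdgfrb, a pericyte receptor gene, was 1.42-fold higher. Oligodendrocyte and neuron markers had medians of 0.02 and -0.02 over 9 and 10 genes, and none of either list was 1.3-fold apart. The oligodendrocyte median was -0.04 with median centring, and the neuron median 0.01 with quantile or loess scaling.

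**Figure D4:**
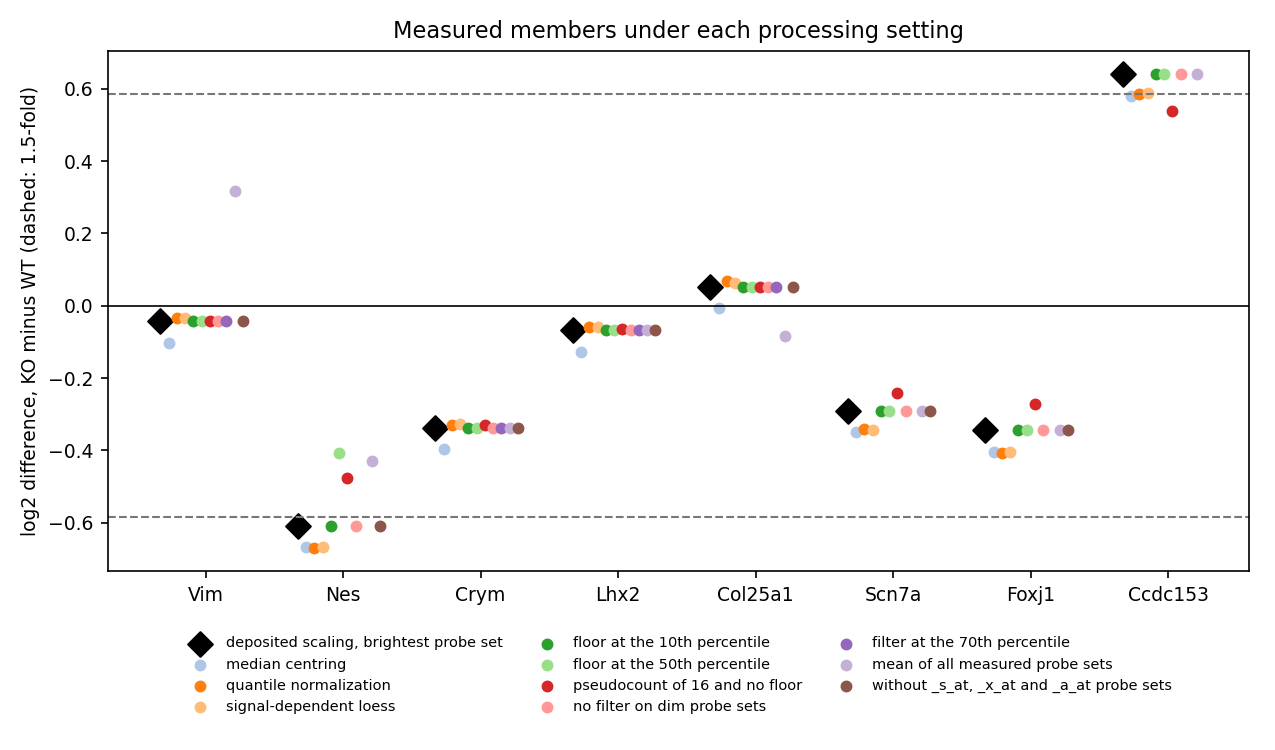
Difference on the log2 scale, Crtc1 KO minus Crtc1 WT, of the 8 measured members in the deposited scaling (black diamonds) and in up to 10 alternative settings (coloured points), with dashed lines at 1.5-fold. Crym, Lhx2, Scn7a, Foxj1, Nes and Ccdc153 keep their sign in each setting that measured them, while Vim is 0.32 with averaged probe sets and Col25a1 is -0.01 with median centring and -0.08 with averaged probe sets.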

How the data were processed

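The authors deposited 1 linear probe-set signal intensity per probe set and array, from biotin-labelled cRNA made from 30 ug of total RNA per the labels' protocols. No source used here gives the algorithm or the scaling. Trimmed by 2% at each end, the mean was 200.0 on both arrays, while the medians were 54.4 in the KO pool and 52.2 in the WT pool, as after scaling by 1 factor per array. Such scaling does not reduce the scatter of dim signals.

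Of 45101 probe sets, 64 controls were left out. By the platform annotation 34945 had 1 gene, 932 several and 9160 none, and symbols were updated through RefSeq (assembly GRCm38.p6, 34741 matched). The array medians differed by 0.06 on the log2 scale, under a limit of 0.1, so the deposited scaling was kept. A gene took its brightest measured probe set. The calculation was also run on simulated data with known differences, with scatter drawn for each probe set from the array error itself. Such a run checks the code and cannot show the scatter between arrays. Python 3.11.15, pandas 2.3.3 and statsmodels 0.14.6 were used.

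Members, lists, thresholds and motifs were chosen with earlier results of these data known. Named genes were all members and, on each companion list, up to 5 genes at least 1.3-fold apart, plus relatives of the members fixed by name, Crtc1 as a check, and Ldb1, Rbp4, Otp, Isl1, Sim1, Nr5a1, Tmem212, Ccdc39, Furin and Rfx4, chosen after their values were seen. Alternatives were 3 scalings, 2 floors, a pseudocount, 2 filters and 2 rules for the probe sets of a gene. The number of arrays limits the precision.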

Additional observations from a re-analysis of the deposited data

How the results depend on the processing

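The count of 2 members at least 1.5-fold apart was 1 with median centring, the floor at the 50th percentile, averaged probe sets, or no _s_at, _x_at and _a_at probe sets. It was 0 with a pseudocount of 16 and with a filter at the 70th percentile, which left 4 members measured. The tanycyte median of -0.18 was -0.055 with that filter, and the ependymal median of 0.15 was -0.34 without the probe sets of those suffixes, which removes Ccdc153. Vim was 0.32 with averaged probe sets. The remaining differences and medians of members moved by less than their array error in the settings that measured them. Rax and Gpr50 were measured only with no filter, where they sat at or near the floor. No paired analysis was possible because each group is 1 pooled array. Signal over background limits Nes, Foxj1, Scn7a and Ccdc153, and the spread between mice is not held in these data.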
